A study of Mus musculus with 16 samples.

Results

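Among 637 single light zone (LZ) germinal center (GC) B cells, 161 (25.3%) combined a low cell-cycle score with no *Myc* read, and these low-cycle *Myc*-negative cells are described here. The cells were selected on measured values. Counts of each cell were scaled to CPM, a gene's counts per 1e+06 counts of the cell. The cycle score was the mean of log2(CPM + 1) over 16 genes of mitosis and DNA replication, and a cell was taken when its score lay in the lowest 30% of all cells and its *Myc* count was 0. Of the 191 cells in the lowest 30%, the other 30 (15.7%) had *Myc* reads and were left out. The 476 cells that were not taken are called the other cells. A *Myc* count of 0 does not show that a cell made no *Myc* RNA. The other cells hold these 30 cells, 299 *Myc*-negative cells above the limit and 147 cells above the limit with *Myc* reads.

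The cells came from popliteal lymph nodes of 8 male C57BL/6J or B6.SJL hosts, which had been primed with ovalbumin (OVA) at an age of 6 to 8 weeks and later boosted with NP-OVA in the footpads. Every host carried transferred B1-8hi BTKC481S and B1-8hi BTKWT B cells, 50% each. B1-8hi cells have a heavy chain that gives high affinity for the hapten NP, and the C481S form of the kinase BTK, which acts close to the B cell receptor (BCR), is not sensitive to the inhibitor used. Hosts A7, A8, A10, A11 and A12 received 3 oral doses of the BTK inhibitor acalabrutinib and hosts V5, V7 and V9 received vehicle, and cells were sorted at 14 hours and sequenced one by one by SMART-seq2. Cell names carry the host, plate and well but no genotype, so both genotypes of a host were pooled. The cells came from 2 independent experiments, and which host belonged to which is not given in the sources used here, so hosts and experiments cannot be told apart.

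In a GC, B cells divide and mutate their antibody genes in the dark zone and return to the LZ, where they test the new receptor on antigen and show antigen fragments to T follicular helper cells. The LZ cells that receive help switch on *Myc* for a short time, grow, enter the cell cycle and go back to the dark zone. LZ cells without *Myc* include cells that wait for help and cells that go on to die or to leave the GC.

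The score and the *Myc* count chose these cells, so the values of these 17 genes are a description. The median score was 0.24 in low-cycle *Myc*-negative cells and 4.10 in the other cells. Among cells with no *Myc* read, the scores just inside the limit of 1.29 were 1.26, 1.26, 1.28, 1.28 and 1.29. Just outside it they were 1.29, 1.31, 1.31, 1.31 and 1.33. No gap separated the cells on either side, so by this score the cells are a range and not a separate group. Whether they form a group by other genes was not tested. No count of any of the 16 cycle genes was found in 50 of the 161 cells (31.1%), a count of 1 gene in 56 (34.8%), of 2 genes in 42 (26.1%) and of 3 genes in 11 (6.83%), and 2 cells (1.24%) had 4 or more. Of the other cells, 416 (87.4%) had 4 or more.

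**Figure D1:**
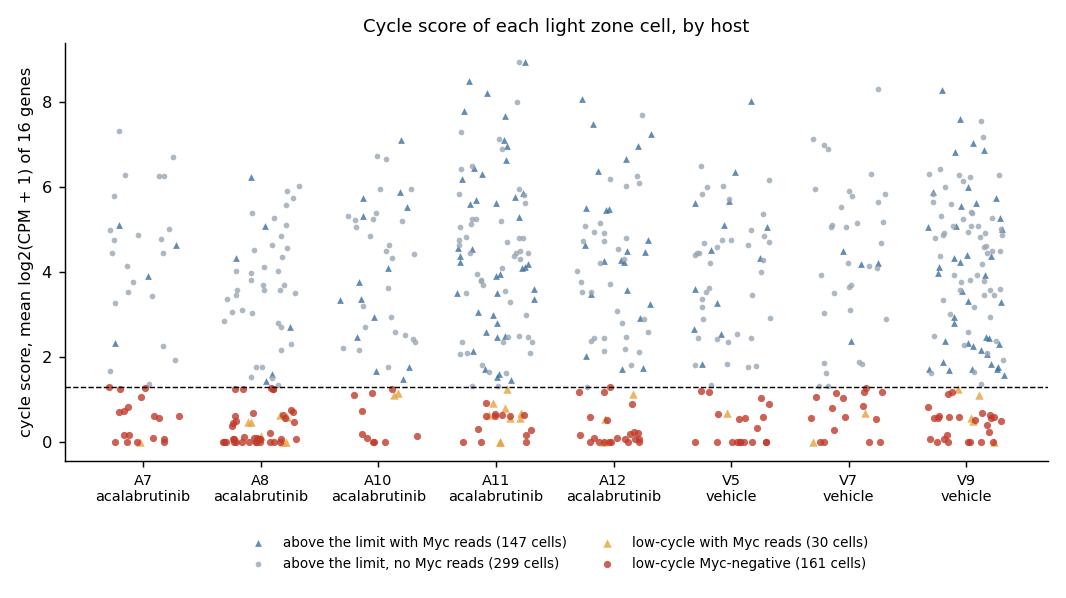
Cycle score of each of the 637 cells (vertical axis, mean log2(CPM + 1) of 16 genes) by host (horizontal axis), with 1 point per cell and the dashed line at the limit of 1.29. Low-cycle *Myc*-negative cells (161) were present in every host, and scores ran through the limit without a gap.

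Of the marker genes in the rule, *Ccnb2*, the cyclin B2 of mitosis, lay between 0 and 53.5 CPM in low-cycle *Myc*-negative cells and between 128 and 313 CPM in the other cells of the 8 hosts. *Mcm5*, a part of the helicase that unwinds DNA for replication, lay between 51.2 and 255 CPM against 467 to 677 CPM. *Pcna*, the clamp that holds DNA polymerase on its template, lay between 0 and 57.9 CPM against 122 to 191 CPM. Reads of *Ccnb2*, *Mcm5* and *Pcna* were found in 3.73%, 14.3% and 6.83% of low-cycle *Myc*-negative cells and in 53.2%, 77.3% and 64.7% of the other cells. *Myc*, the transcription factor of positive selection, had reads in 37.2% of the other cells.

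The label of LZ GC B cells was checked with defining markers. *Cd79a*, *Pax5* and *Ebf1*, which define B cells, had reads in 98.1%, 95.7% and 99.4% of low-cycle *Myc*-negative cells. *Ms4a1*, which B cells express too, had 0 counts in every cell of the matrix. The GC genes *Bcl6* and *S1pr2* had reads in 83.9% and 78.3% of these cells. The LZ genes *Cd83* and *Cd86* had reads in 94.4% and 66.5%, and the dark zone gene *Cxcr4* in 41.0% against 57.6% of the other cells. Of genes of cells that have left the GC program, *Prdm1*, the regulator of plasma cells, had reads in 7.45% of low-cycle *Myc*-negative cells and 5.88% of the other cells, and the plasma cell surface gene *Sdc1* in 0.621% and 2.94%. *Irf4*, *Xbp1* and *Jchain*, which also go with plasma cells, had reads in 3.11%, 45.3% and 82.6% against 12.2%, 59.7% and 94.1%. *Cd38*, *Ccr6*, *Hhex* and *Klf2*, which naive or memory B cells express, had reads in 18.6%, 4.97%, 7.45% and 1.86% of low-cycle *Myc*-negative cells and in 14.9%, 3.57%, 5.04% and 0.840% of the other cells.

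The defining markers of T cells and macrophages named first here had reads in few or no low-cycle *Myc*-negative cells. Reads of the T cell receptor complex genes *Cd3e*, *Cd3d* and *Cd3g* were found in 0%, 0.621% and 0.621% of low-cycle *Myc*-negative cells, where 0 of 161 cells allows a share of cells with a read of up to 1.86%. *Cd4* had reads in 3.11% of these cells and 1.68% of the other cells, and *Trac* in 1.24% and 3.15%. *Lyz2* and *C1qa*, made by macrophages, had no read in low-cycle *Myc*-negative cells. *Cd68* and *Csf1r* had reads in 5.59% and 1.24% of them, against 10.3% and 2.52% of the other cells. Summed over the list, T cell markers stood at 353 CPM in low-cycle *Myc*-negative cells and 266 CPM in the other cells, and the most abundant of them was *Lck*, with reads in 47.2% and 53.2% of cells. Macrophage markers stood at 27.7 and 43.1 CPM, of which *Cd68* held 16.3 and 20.8 CPM. Dendritic and stromal markers stood at 248 and 195 CPM, most of it *Pecam1*, and red cell and platelet markers at 6.20 and 8.02 CPM. EdgeR, as described below, called none of the 8 tested genes of these 4 lists, of which 1 T cell and 1 macrophage marker had an unadjusted p under 0.05, and DESeq2 called 1 macrophage marker. Over all genes these 2 shares were 15.7% and 17.3%.

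Low-cycle *Myc*-negative cells were sequenced less deeply. Their median total was 660997 counts against 852954 in the other cells, and the median number of genes with a read was 3277 against 4202.5. Within every host the median total was lower than that of the other cells, with ratios between 0.677 and 0.851. Mitochondrial counts took a median of 0.854% in low-cycle *Myc*-negative cells and 0.696% in the other cells. Less RNA in a cell and less of it captured cannot be told apart in these counts, and CPM measures the share of a gene among the counts of a cell, not its copies. Among the 161 cells, the total and the score were weakly related (Pearson's r = 0.14, Spearman's rho = 0.15, across cells that share hosts and plates). With every cell thinned to 459128 counts, which left out 64 cells (28 of them low-cycle *Myc*-negative), the choice gave 142 cells. These held all 133 low-cycle *Myc*-negative cells kept. Thinning only removes reads, so a *Myc* or cycle gene count of 0 stays at 0. Whether depth had a part in the choice was therefore not tested by this overlap.

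The cells made up different shares of the hosts. The share was 40% in host A7, 42.7% in A8, 19.2% in A10, 11.4% in A11 and 27.2% in A12, and 26.8%, 29.1% and 19.2% in the vehicle hosts V5, V7 and V9. The mean was 28.1% ± 13.4 (SD, n = 5) after acalabrutinib and 25.03% ± 5.15 (SD, n = 3) after vehicle. All vehicle hosts lay within the range of the acalabrutinib hosts, and the difference of 3.07 percentage points was within the spread between hosts (exact permutation test, two-sided, with 56 possible splits, p = 0.73; the smallest p is 0.018). Without host A8 the difference was -0.58 points, and without A11 it was 7.24 points. Over the 15 plates, each of which held cells of 1 host, the share ran from 8.47% to 44.8%, with a median of 26.7%.

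**Figure D2:**
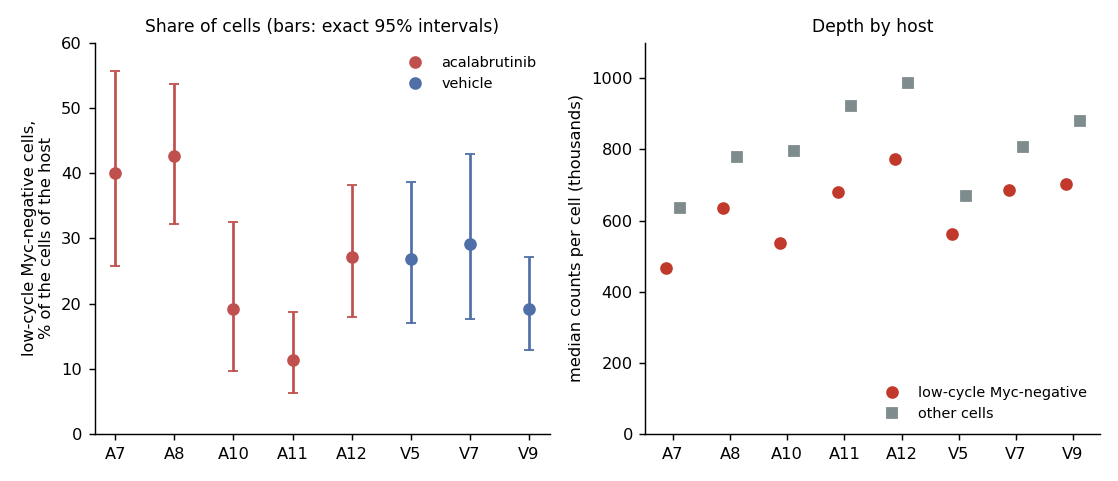
Left, share of low-cycle *Myc*-negative cells among the cells of each host (vertical axis, %), with exact 95% binomial intervals that cover counting error only. Right, median counts per cell (vertical axis) by host, from 466338 to 772712 in low-cycle *Myc*-negative cells and from 635619 to 985596 in other cells, lower in the former in all 8 hosts.

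Counts of the cells of a host were summed, and low-cycle *Myc*-negative cells were set against all other cells from that host by edgeR's quasi-likelihood test with the host as a block, adjusted by Benjamini-Hochberg over all genes. Of 11878 genes besides the 17 of the rule, 447 (3.76%) changed at an adjusted p under 0.05, 165 higher (1.39%) and 282 lower (2.37%). Of the 165 higher genes, 117 were higher in all 8 hosts, as were 199 (1.68%) of all genes tested, and for 24 the hosts did not overlap, as for 26 (0.219%) of all. Of the 282 lower genes, 235 were lower in all 8 hosts and 182 did not overlap, against 710 (5.98%) and 319 (2.69%) of all. The falls were large and the rises small: the median log2 fold change was -8.01 among lower genes, which includes 8 genes without a count in low-cycle *Myc*-negative cells, and 0.66 among higher genes (0.29 to 2.08). Higher genes made up 36.9% of the calls, 25.4% with scaling to the library total and 15.2% with DESeq2.

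The median gene tested was lower in low-cycle *Myc*-negative cells, by a log2 fold change of -0.52 in the test and by -0.51 as the mean over hosts of the difference in log2(CPM + 1), the scale of the list medians that follow, which understates the change of low genes. With no replicate block the median log2 fold change was 0.07, so its sign depended on the block. All 165 higher genes were among the most expressed 2970 genes (91.6 to 4284 CPM), where the median difference was -0.11. In the 3 groups of like size below, from the lowest up, it was -0.53, -0.92 and -0.67. Against 161 other cells of the same hosts with the nearest total counts, whose median total was 680002, the median of all genes was -0.12. In that comparison all 165 higher genes kept a positive log2 fold change and 25 of them passed the test, and of the 187 lower genes that could be tested all kept a negative one and 79 passed. Over all 9707 genes tested there, 107 passed (1.1%), 28 higher (0.288%) and 79 lower (0.814%).

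**Figure D3:**
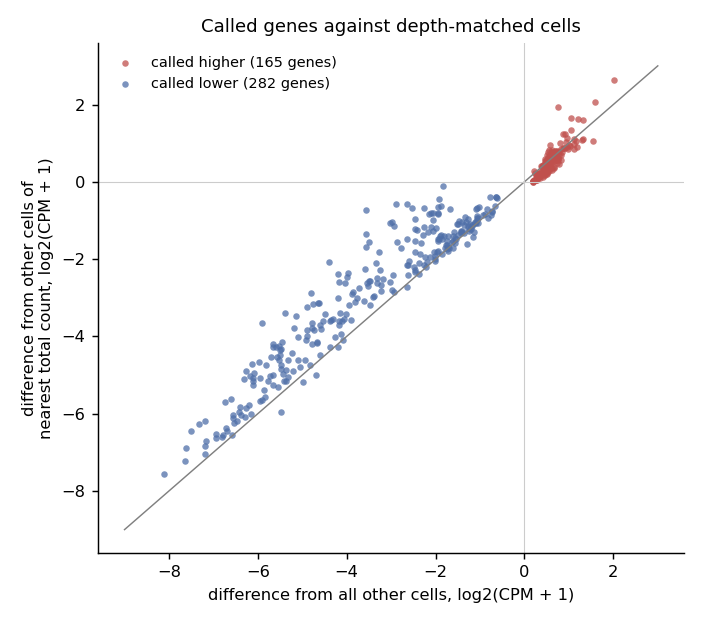
Difference in log2(CPM + 1) of the 447 changed genes (165 higher, 282 lower), 1 point per gene, from all other cells (horizontal axis) and from other cells of nearest total count (vertical axis). The line marks equal differences. All 282 lower and 163 of the 165 higher genes lay on the same side of 0 in both.

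Genes of cell division outside the rule follow the cycle score, so their fall goes with the choice of cells and is a description of how deep it was. None of 29 other mitotic genes rose and 18 fell, with a list median of -5.77. *Mki67*, the common label of dividing cells, was between 11.1 and 111 CPM (median 74.3) in low-cycle *Myc*-negative cells and between 471 and 663 CPM (median 601) in the other cells, and the hosts did not overlap. *Ccna2* (cyclin A2), *Cdk1* (the kinase that starts mitosis) and *Spc25* (a kinetochore protein) had no read in any of the 161 cells, which allows a share of cells with a read of up to 1.86%, and reads in 51.7%, 46.6% and 38.4% of the other cells. *Aurka*, a kinase of the spindle poles, and *E2f8*, a transcription factor of late S phase, each had reads in 0.621% of low-cycle *Myc*-negative cells, against 25.6% and 35.7%. *Bub1* of the spindle checkpoint had reads in 2.48% against 39.9%, and *Gtse1* in 1.86% against 26.1%. *Tubb5*, a tubulin, kept a lower but clear level, between 140 and 675 CPM (median 427) against 1323 to 1756 CPM (median 1502), without overlap.

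None of 31 other replication genes rose and 11 fell, with a list median of -3.06. *Mcm2*, another part of the helicase, was between 31.2 and 274 CPM (median 124) against 382 to 646 CPM (median 494), without overlap. *Dnmt1*, which copies DNA methylation behind the fork, was between 146 and 336 CPM (median 229) against 475 to 812 CPM (median 606). Of 30 mutation and repair genes, many of which are also made in S phase, 8 fell and none rose. *Polh*, the polymerase that puts mutations at A and T bases, fell from a median of 136 CPM (114 to 250) to 17.1 CPM (8.08 to 51.3).

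The promoters of these genes are shown because mitotic and replication genes carry different short sequences near their start sites. The windows are from RefSeq (mouse build GRCm38.p6), 250 bases before to 50 after the start, written 5′ to 3′ on the strand of the gene. The methods name GRCm39 for the counts, and no coordinate of theirs was used. Capitals mark 3 motifs searched on both strands, so that ATTGG is a CCAAT read from the other strand: TTTGAA (the core of the CHR element of mitotic genes), CCAAT (the box bound by NF-Y) and TTTGGCGC or TTTCGCGC (E2F sites). *Ccnb2* (chr9:70421505-70421804, minus strand) and *Cdk1* (chr10:69352863-69353162, minus strand) stand for mitosis and *Mcm5* (chr8:75109259-75109558, plus strand) for replication, and in *Mcm5* 2 E2F matches on opposite strands overlap. The *Cdk1* window holds 1 E2F match too. *H2-Aa* (chr17:34287774-34288073, minus strand), of the MHC class II genes described below, stands for a gene that rose.
Ccnb2: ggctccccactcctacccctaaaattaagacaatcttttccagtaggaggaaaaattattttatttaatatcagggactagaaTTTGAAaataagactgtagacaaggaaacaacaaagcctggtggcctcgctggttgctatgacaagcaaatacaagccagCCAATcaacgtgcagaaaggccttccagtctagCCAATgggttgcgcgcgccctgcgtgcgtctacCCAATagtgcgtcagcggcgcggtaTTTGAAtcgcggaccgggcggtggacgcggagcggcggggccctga
Cdk1: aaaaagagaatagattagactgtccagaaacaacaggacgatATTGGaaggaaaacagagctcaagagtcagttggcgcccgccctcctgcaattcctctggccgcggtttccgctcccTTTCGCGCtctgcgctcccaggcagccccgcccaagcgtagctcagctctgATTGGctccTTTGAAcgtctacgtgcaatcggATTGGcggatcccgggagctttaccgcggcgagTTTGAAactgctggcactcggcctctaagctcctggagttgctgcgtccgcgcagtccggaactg
Mcm5: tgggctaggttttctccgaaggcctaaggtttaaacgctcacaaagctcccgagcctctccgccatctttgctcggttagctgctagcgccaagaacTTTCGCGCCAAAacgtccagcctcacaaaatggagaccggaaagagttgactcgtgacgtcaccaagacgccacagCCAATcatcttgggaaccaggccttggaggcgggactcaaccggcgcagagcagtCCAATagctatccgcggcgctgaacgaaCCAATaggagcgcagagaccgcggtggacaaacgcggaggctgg
H2-Aa: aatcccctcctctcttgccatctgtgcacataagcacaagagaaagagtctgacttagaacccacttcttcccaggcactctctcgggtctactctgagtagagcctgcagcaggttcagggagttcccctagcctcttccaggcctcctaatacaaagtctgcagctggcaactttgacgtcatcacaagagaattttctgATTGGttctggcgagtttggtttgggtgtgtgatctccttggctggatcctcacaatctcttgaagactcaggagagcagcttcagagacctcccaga

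TTTGAA was in 21 of 29 promoter windows of the other mitotic genes (72.4%), 5 of 33 of the other replication genes (15.2%) and 17.9% of all 32851 windows. The E2F letters were in 8 windows of the other replication genes (24.2%), 1 of the other mitotic genes (that of *Cdk1*) and 0.813% of all. CCAAT was in 22 windows of the other mitotic genes (75.9%), 18 of the other replication genes (54.5%) and 37.4% of all. Antigen presentation genes had CCAAT in 19 of 25 windows (76%) and TTTGAA in 2 (8%). Genes of the BCR complex and proximal signalling had CCAAT in 8 of 33 windows (24.2%) and GC identity genes in 12 of 37 (32.4%). These shares describe the letters of the windows, and binding was not measured.

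Genes that go with growth were lower or did not pass. Of 33 metabolic and translation genes that MYC raises, none rose and 4 fell, with a list median of -1.12, and their summed level was 4463 ± 870 CPM (SD, n = 8 hosts) against 7175 ± 876 CPM, lower in every host. *Ranbp1*, a partner of the nuclear transport GTPase RAN, was between 25.1 and 73.5 CPM (median 52.2) against 113 to 172 CPM (median 155), and the hosts did not overlap. *Cdk4*, the kinase partner of D cyclins, was between 81.4 and 179 CPM (median 151) against 261 to 379 CPM (median 310), again without overlap. *Ran* fell by 1.14 ± 0.18 (log2, SE) and *Eif4e*, which binds the mRNA cap, by 1.32 ± 0.32. *Tpi1* of glycolysis and *Phgdh* of serine synthesis were the genes that fell among 29 glycolysis and mTORC1 genes (list median -0.45), and none rose. Of all 11878 genes, 15.7% had an unadjusted p under 0.05 by edgeR. DESeq2 called 17.3% of its genes, and limma on the mean log2(CPM + 1) per cell called 2681 of 8841. EdgeR called none of 32 nucleolar and ribosome assembly genes (list median -1.35; 8 at an unadjusted p under 0.05), where DESeq2 called 6 and limma 23. It called none of 72 ribosomal protein genes (list median -0.03; 6 at an unadjusted p under 0.05), where DESeq2 called 4 and limma 12. *Ncl* (nucleolin) had a median of 430 CPM over hosts against 663 CPM (edgeR adjusted p = 0.097) and *Npm1* (nucleophosmin) 414 against 544 CPM (adjusted p = 0.24).

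Of 21 brakes on the cell cycle, *Btg2* and *Foxo1* rose and none fell. The list median was -0.29, and 0.26 against other cells of nearest depth, so its sign turned there. The summed level was 2507 ± 332 CPM (SD, n = 8 hosts) against 2006 ± 229 CPM, and without *Foxo1* 1687 ± 239 CPM against 1411 ± 171 CPM, both higher in 7 of 8 hosts. *Btg2*, an antiproliferative gene, was between 312 and 618 CPM (median 408) against 199 to 436 CPM (median 230), higher in 7 of 8 hosts. *Foxo1*, a factor that PI3K signalling turns off, was between 552 and 989 CPM (median 902) against 462 to 878 CPM (median 592), also higher in 7 of 8 hosts. Their groups overlapped, with log2 fold changes of 0.84 ± 0.20 and 0.56 ± 0.14 (SE; edgeR quasi-likelihood adjusted p = 0.0451 and 0.0488), and neither passed with scaling to the library total. *Ccnd3*, the D cyclin of GC B cells, rose by 0.46 ± 0.10 and did not pass with that scaling either.

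**Figure D4:**
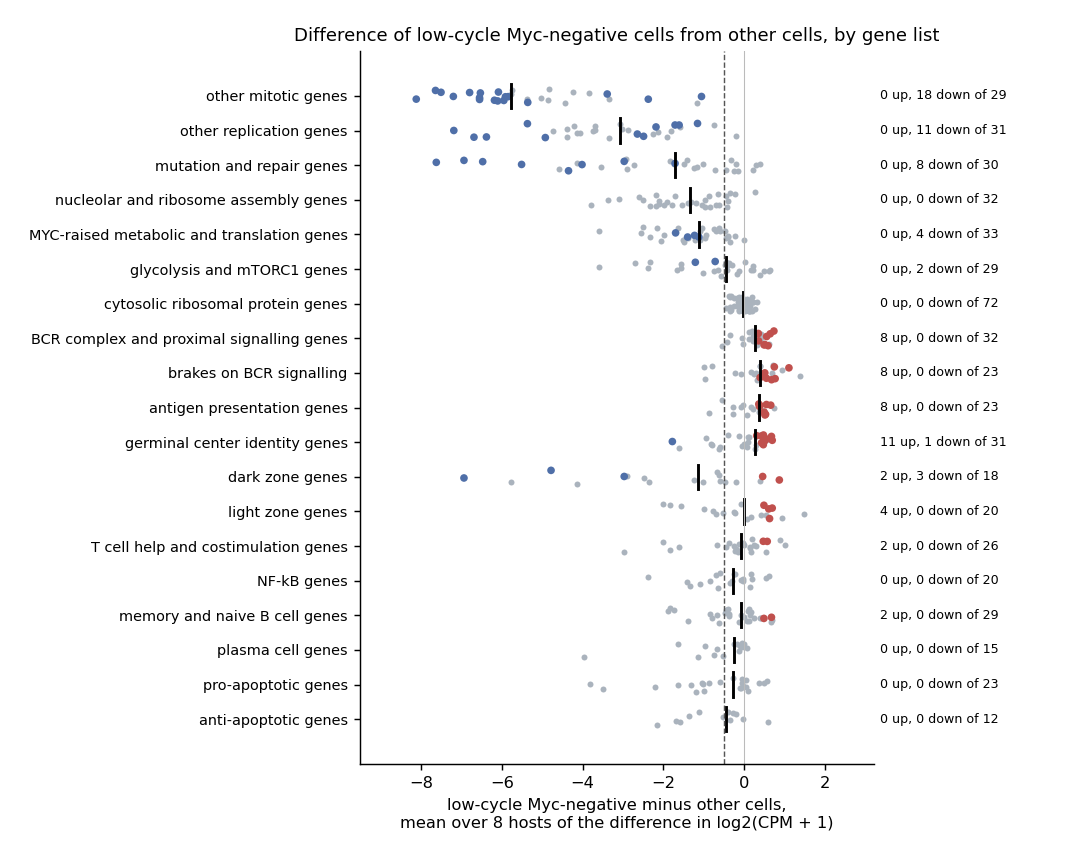
Difference of low-cycle *Myc*-negative cells from other cells for 19 gene lists (horizontal axis, mean over 8 hosts of the difference in log2(CPM + 1)), with 1 point per gene tested, the black bar at the list median, and genes that passed edgeR's test in red (higher) or blue (lower). The dashed line is the median of all genes, -0.51. For the most expressed 2970 genes the median was -0.11. Division, repair, nucleolar, MYC-raised and dark zone lists lay to the left of the line. All other lists lay to its right, the BCR, antigen presentation and GC identity lists among them.

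Genes of the receptor and its signalling were among the rises. Of 32 genes of the BCR complex and proximal signalling, 8 rose and none fell. The list median was 0.27, against -0.51 for all genes and -0.11 for the most expressed 2970 genes. The summed level of the list was 16650 ± 1169 CPM (SD, n = 8 hosts) against 12459 ± 1237 CPM, higher in every host. *Cd79b*, a signalling chain of the receptor, was between 802 and 1260 CPM (median 994) against 592 to 857 CPM (median 694), higher in every host though the ranges overlapped. The log2 fold change was 0.61 ± 0.07 (SE; edgeR quasi-likelihood, Benjamini-Hochberg adjusted p = 0.000938). *Lyn*, the first kinase at the receptor, was between 1047 and 1749 CPM (median 1273) against 704 to 1164 CPM (median 867), higher in every host. Other genes that rose included *Cd79a*, *Blnk* and *Pik3ap1*, which are adaptors or receptor chains, *Prkcb*, a protein kinase C, and *Itpr2*, a calcium channel, by 0.45 to 0.84. The share of cells with *Lyn* reads was 92.5% against 92.4%, so the levels differed where detection was alike.

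*Btk*, the target of the inhibitor, did not pass. It was between 215 and 730 CPM (median 337) in low-cycle *Myc*-negative cells and between 254 and 463 CPM (median 331) in the other cells. It was higher in 4 of 8 hosts, with a log2 fold change of 0.29 ± 0.16 (SE; edgeR quasi-likelihood adjusted p = 0.42). *Syk*, the kinase that binds the phosphorylated receptor chains, was between 387 and 882 CPM (median 497) against 326 to 634 CPM (median 394), with an adjusted p of 0.39 by the same edgeR test.

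Of 23 brakes on BCR signalling, 8 rose and none fell (list median 0.39), and they were summed at 12013 ± 844 CPM against 8091 ± 815 CPM, higher in every host. Whether each gene of this list acts as a brake in these cells was not tested. *Bank1*, a scaffold protein of B cells, was between 476 and 1275 CPM (median 854) against 282 to 595 CPM (median 361). Its log2 fold change was 1.21 ± 0.20 (SE, edgeR adjusted p = 0.00795). *Ptprc*, the CD45 phosphatase that can both prime and restrain SRC kinases, was between 1873 and 2472 CPM (median 2206) against 1251 to 1668 CPM (median 1522), without overlap. *Csk*, which switches off LYN, was between 938 and 1829 CPM (median 1210) against 629 to 1059 CPM (median 723). *Cd22* and *Siglecg* are inhibitory lectins, *Ptpn6* and *Inpp5d* are the phosphatases SHP-1 and SHIP-1, and *Cd180* is a TLR-like receptor, and these rose by 0.49 to 0.87.

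Of 19 early response genes, which antigen signalling switches on, *Cd83* and *Btg2* rose and none fell. The list median was -0.43, with 13 of the 19 genes below 0, and its sign turned against other cells of nearest depth (0.01, beside -0.12 for all genes). The summed level was 3373 ± 721 CPM against 2467 ± 312 CPM, higher in 7 of 8 hosts, of which *Cd83* alone held 1944 and 1274 CPM. Without *Cd83* it was 1428 ± 353 CPM against 1193 ± 135 CPM, higher in 6 of 8 hosts. *Egr1* was between 0 and 420 CPM (median 70.8) against 65.9 to 182 CPM (median 111), and *Nr4a1* between 0.0573 and 73.3 CPM (median 9.90) against 1.32 to 46.8 CPM (median 11.7), both with wide overlap (edgeR adjusted p = 0.87 and 0.69). EdgeR called none of 20 NF-kB genes (list median -0.28; 3 at an unadjusted p under 0.05), DESeq2 called 1 and limma 5. Over all genes 15.7% had such a p, DESeq2 called 17.3% and limma 2681 of 8841. Where the mean of log2(CPM + 1) over cells replaced summed counts, the list median of BCR proximal genes was -0.0032, with 16 of 32 above 0. All genes had a median of -0.36 in that setting. There limma called 3 BCR proximal genes, 4 brakes on BCR signalling, 3 antigen presentation genes and 9 GC identity genes, in either direction. By edgeR on summed counts these numbers were 8, 8, 8 and 12. Against the other cells of nearest depth, which are fewer, 3 BCR proximal genes, 2 brakes on BCR signalling, 2 GC identity genes and no antigen presentation gene passed, all of them higher. Of all 9707 genes tested there, 28 were higher (0.288%). The list medians were 0.26, 0.48, 0.19 and 0.32, beside -0.12 for all genes and 0.40 for 47 long genes of other tissues.

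Antigen presentation genes formed the next group. Of 23 genes, 8 rose and none fell (list median 0.37), and their summed level was 14592 ± 898 CPM against 11186 ± 781 CPM, higher in every host. *Cd74*, the chain that guides MHC class II to the endosome, was between 2096 and 2907 CPM (median 2452) against 1510 to 1998 CPM (median 1750), without overlap (log2 fold change 0.59 ± 0.07, SE; edgeR adjusted p = 0.00124). *H2-DMb2*, a chain of the editor that loads peptides, was between 674 and 1030 CPM (median 845) against 458 to 669 CPM (median 580), again without overlap. The class II chains *H2-Aa*, *H2-Ab1* and *H2-Eb1* rose by 0.49, 0.46 and 0.48. *H2-Ob*, which restrains the editor, *Ctss*, the protease that trims CD74, and *Marchf1*, a ligase that marks class II for removal, rose by 0.65, 0.63 and 0.76.

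Of 31 genes of GC B cell identity, 11 rose and 1 fell (list median 0.28, and -0.12 with the mean of log2(CPM + 1) over cells). With scaling to the library total 7 rose and 3 fell. *Bach2*, which holds back plasma cell fate, had 4722, 5995, 4976, 3583 and 4056 CPM in hosts A7, A8, A10, A11 and A12 and 4645, 4318 and 4100 CPM in V5, V7 and V9. The other cells of the same hosts had 3506, 3840, 2652, 2143 and 2303 CPM, and 2473, 3312 and 2796 CPM. Every host was higher, with some overlap between hosts, and the log2 fold change was 0.78 ± 0.07 (SE; edgeR quasi-likelihood adjusted p = 0.000438). *Spib*, an ETS family factor of B cells, was between 711 and 1016 CPM (median 888) against 553 to 674 CPM (median 613), without overlap. *Pax5* and *Ebf1*, which keep B cell identity, rose by 0.64 and 0.57, *Bcl6*, the main repressor of the GC program, by 0.54, and *S1pr2*, which holds cells in the GC, by 0.53. *Ezh2*, the histone methyltransferase that dividing GC cells need, fell from a median of 219 CPM (172 to 304) to 70.5 CPM (32.0 to 110), without overlap.

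Of 20 LZ genes, 4 rose and none fell. The list median was -0.00 in log2(CPM + 1) and 0.34 in the log2 fold change of the test, so its sign depended on the scale, and 0.30 against other cells of nearest depth. The summed level was 5617 ± 936 CPM against 4028 ± 560 CPM, and without *Cd83* 3673 ± 570.0 CPM against 2754 ± 341 CPM, both higher in every host. With scaling to the library total 1 of the 4 passed. *Cd83*, a surface protein of activated LZ cells, was between 1415 and 2420 CPM (median 1942) against 996 to 1723 CPM (median 1201), higher in every host. *Fcer2a* (CD23), *Cxcr5*, the receptor that leads to the follicle, and *Cd52* rose by 0.59, 0.80 and 0.73, and none of the 4 passed against the cells of nearest depth. *Cd86*, a ligand for T cells, was between 342 and 886 CPM (median 520) against 241 to 446 CPM (median 431; edgeR adjusted p = 0.087). Of 18 dark zone genes (list median -1.14), *Foxo1* and *Foxp1* rose and 3 fell, *Polh* among them. *Cxcr4*, the dark zone receptor, was between 8.61 and 69.1 CPM (median 34.6) against 27.9 to 82.2 CPM (median 45.3; edgeR adjusted p = 0.69). *Gcsam*, a GC gene that restrains B cell motility, was between 128 and 429 CPM (median 213) against 390 to 543 CPM (median 431), lower in 7 of 8 hosts (edgeR adjusted p = 0.055).

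**Figure D5:**
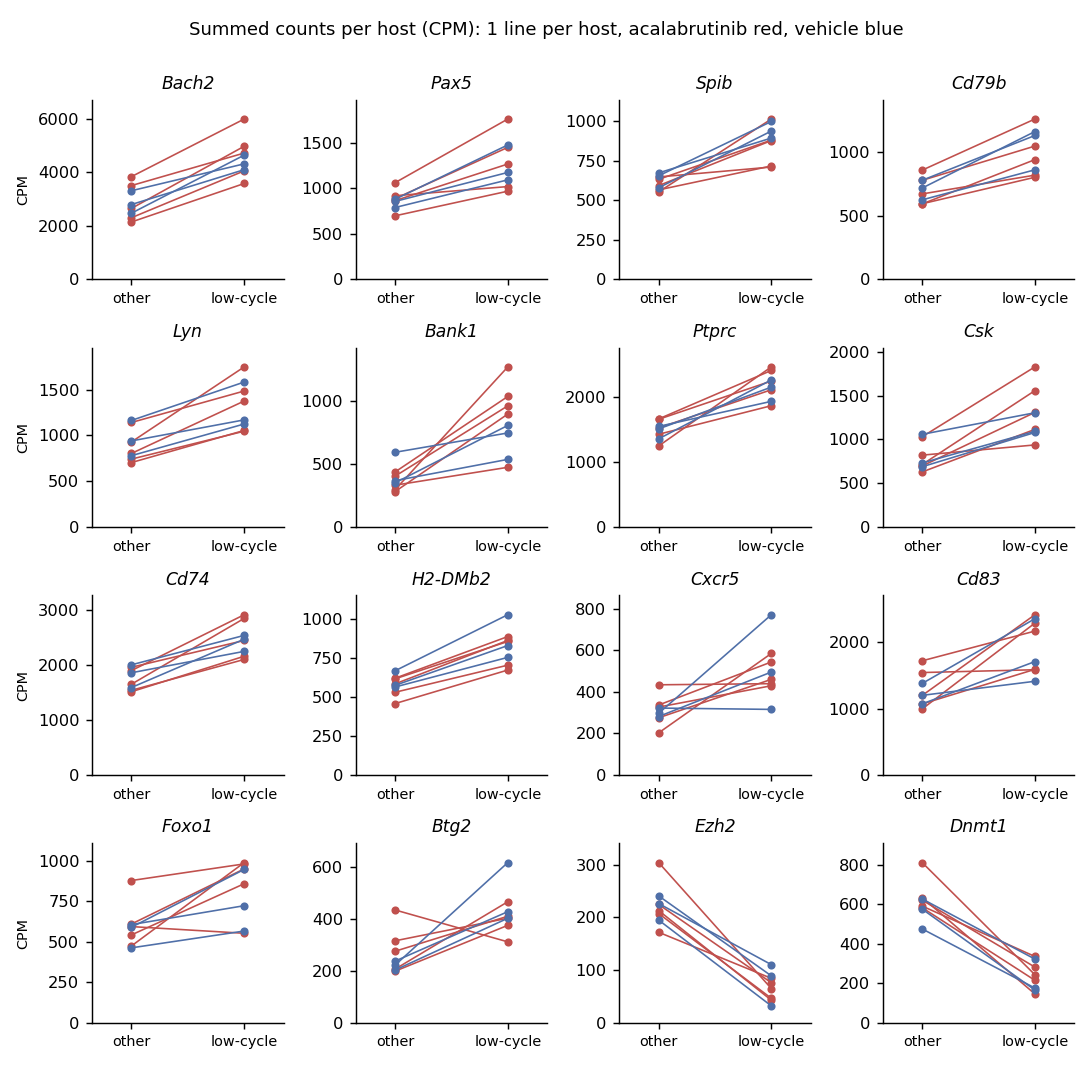
CPM of 16 genes in summed counts of each host (vertical axis, from 0), for other cells and low-cycle *Myc*-negative cells (horizontal axis). Each line joins 1 host, red for acalabrutinib and blue for vehicle. *Spib*, *Ptprc*, *Cd74* and *H2-DMb2* did not overlap upward, nor *Ezh2* and *Dnmt1* downward.

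Genes of T cell help, other fates and cell death were counted next. Of 26 genes of T cell help and costimulation, the cytokine receptors *Il21r* and *Il4ra* rose, by 0.57 and 0.67, and neither passed with scaling to the library total. The list median was -0.08 (0.08 in the log2 fold change, and 0.15 against other cells of nearest depth), and the summed level was 5273 ± 400.0 CPM against 4471 ± 261 CPM, higher in every host. Of 29 memory and naive B cell genes, the 2 that rose were *Bach2* and *Fcer2a*, which also stand in other lists (list median -0.07, with 14 genes above 0 and 15 below). In the log2 fold change of the test the list median was 0.21, with 17 of 29 genes above 0, so its sign depended on the scale. Against other cells of nearest depth the list median was 0.24 in log2(CPM + 1) and 0.30 in log2 fold change. There 20 of 25 genes tested were above 0 in log2 fold change, and 1 passed. The summed level was 8880 ± 877 CPM against 6354 ± 802 CPM, higher in every host, of which *Bach2* alone held 4549 and 2878 CPM. Without *Bach2* it was 4331 ± 420 CPM against 3476 ± 299 CPM, higher in 7 of 8 hosts. EdgeR called none of 15 plasma cell genes, 12 anti-apoptotic genes or 23 pro-apoptotic genes, with list medians of -0.26, -0.46 and -0.29. At an unadjusted p under 0.05 there were 2, 1 and 4 of them, DESeq2 called 1, 2 and 5, and limma called 8, 3 and 7. Over all genes 15.7% had such a p, DESeq2 called 17.3% and limma 2681 of 8841. *Mcl1*, which GC B cells need to survive, was between 51.4 and 178 CPM (median 116) against 47.2 to 104 CPM (median 70.4), higher in 5 of 8 hosts (edgeR adjusted p = 0.43). *Bcl2l11* (BIM), which drives death of B cells, was between 0 and 118 CPM (median 80.9) against 15.3 to 97.5 CPM (median 60.2; edgeR adjusted p = 0.95). *Ighm* counts exceeded *Ighg* counts in 3.73% of low-cycle *Myc*-negative cells (6) and 6.72% of the other cells (32).

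Among the genes with the largest rises, 4 had hosts that did not overlap. *Plekhm3* was between 358 and 865 CPM (median 560) against 176 to 317 CPM (median 216), a log2 fold change of 1.42 ± 0.15 (SE; edgeR adjusted p = 0.000749). *Sorl1*, a sorting receptor of endosomes, was between 647 and 1048 CPM (median 836) against 301 to 631 CPM (median 362). *Nxpe4* and *Tbc1d14* rose by 1.40 and 1.28. The others of the 10 largest were *Map3k9*, a kinase of the JNK pathway (2.08), *Adamts6*, a metalloprotease (1.71), *Myo18a*, a myosin (1.68), *Trpv2*, a cation channel (1.32), *Pld4*, a nuclease of endolysosomes (1.22), and *Bank1*. *Map3k9* had reads in 31.1% of low-cycle *Myc*-negative cells and 15.8% of the other cells.

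Nuclear and mitochondrial transcripts, long genes of other tissues, and ribosomal and repeat-rich RNAs were looked at as well. Whether they follow the handling of a cell was not tested. *Malat1*, a nuclear RNA, rose by 0.78 ± 0.08 (median 849 against 517 CPM). The mitochondrial transcripts *mt-Nd5* and *mt-Co1* rose by 0.30 and 0.29, neither of them with scaling to the library total or against cells of nearest depth, and 7 other tested mitochondrial transcripts did not pass. None of 47 long genes of other tissues passed edgeR's test (list median 0.05, and 0.40 against other cells of nearest depth, summed at 2449 against 1688 CPM), 4 had an unadjusted p under 0.05, and DESeq2 called 4. Over all genes 15.7% had such a p and DESeq2 called 17.3%. The ribosomal RNA entry *Rn18s-rs5* rose by 0.37 (4583 against 3786 CPM) and the repeat-rich transcript *Gm10800* by 0.61 (1659 against 1168 CPM), and both were named after their values were seen. These RNAs and the lower depth went with the same cells as the higher receptor and antigen presentation genes, and their part in those rises was not tested.

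Comparison with *Myc*-negative cells above the limit removed the difference in *Myc* reads. Of 11168 genes 307 (2.75%) changed, 95 higher (0.851%) and 212 lower (1.9%) in low-cycle *Myc*-negative cells. Rises included 5 of 32 BCR proximal genes, 7 of 23 brakes on BCR signalling, 8 of 23 antigen presentation genes, 8 of 31 GC identity genes and 4 of 19 LZ genes. *Bach2* was higher by 0.59 in this comparison (edgeR quasi-likelihood adjusted p = 0.000886), and *Cd86* by 0.93 (adjusted p = 0.0459), while *Gcsam* was lower, by -1.04 (adjusted p = 0.0284). *Bcl6* and *S1pr2* did not pass (adjusted p = 0.12 and 0.11), and *Btk* had a log2 fold change of 0.15 (adjusted p = 0.79). Both comparisons share the low-cycle *Myc*-negative cells, so they are not independent.

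The 30 low-cycle cells with *Myc* reads differ from these cells by the *Myc* count of the rule. Their *Myc* level had a median of 619 CPM (1.57 to 1575), against 406 CPM (0.860 to 2241) in the 147 cells with *Myc* reads above the limit. Hosts A8, A11 and V9 had at least 5 cells on each side (38 and 7, 13 and 9, and 25 and 5). With these 3 hosts edgeR called none of 9224 genes (0%), 313 (3.39%) had an unadjusted p under 0.05, and DESeq2 called 1201. The genes named next had among the smallest p-values, were picked with those values in view, and each had an edgeR adjusted p of 0.998. *Nfkb2*, a subunit of the NF-kB branch that CD40 engages, had 63.4, 105 and 148 CPM in low-cycle *Myc*-negative cells of A8, A11 and V9 and 452, 365 and 852 CPM in the low-cycle cells with *Myc* reads. *Nfkbia*, the inhibitor that NF-kB induces, had 91.1, 176 and 107 CPM against 387, 602 and 792 CPM. *Bach2* had 5995, 3583 and 4100 CPM against 4097, 2544 and 3255 CPM. In all 3 hosts *Nfkb2* and *Nfkbia* were lower and *Bach2* higher without *Myc* reads, differences that did not pass over all genes.

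Acalabrutinib and vehicle hosts were compared within the low-cycle *Myc*-negative cells. EdgeR called none of 11146 genes (0%), 361 (3.24%) had an unadjusted p under 0.05, and DESeq2 called 437 (3.68%). In the test of whether the difference from other cells depended on treatment, edgeR called none of 17373 genes (0%), 441 (2.54%) had an unadjusted p under 0.05, and DESeq2 called 496 (2.98%). On simulated counts with the spread of these sums edgeR missed most of the changed genes, so these counts of 0 do not show that gene levels were alike. Summed BCR proximal genes stood at 16560 ± 1336 CPM (SD, n = 5) after acalabrutinib and 16800 ± 1080 CPM (SD, n = 3) after vehicle, and antigen presentation genes at 14664 and 14471 CPM. Brakes on BCR signalling stood at 12532 ± 526.3 CPM (11774 to 13245) after acalabrutinib and 11146 ± 370 CPM (10785 to 11525) after vehicle. That was the only one of 35 lists (2.86%) in which the summed level in these cells did not overlap between the 2 groups of hosts, it was picked out after its values were seen, and no gene of it passed the test. MYC-raised genes stood at 4463 ± 1098 and 4463 ± 487 CPM, and NF-kB genes at 3076 ± 215 and 2689 ± 203 CPM. Summed pro-apoptotic genes were higher in low-cycle *Myc*-negative than in other cells in 5 of 5 acalabrutinib hosts, by 109 ± 66.9 CPM (SD; 22.2 to 197), and in 0 of 3 vehicle hosts, with a difference of -91.9 ± 64.6 CPM (-159 to -29.7). That was the only one of the 35 lists in which the sign differed between all hosts of the 2 groups, it was picked out after its values were seen, and the difference between treatments was not tested for the sum. Summed dark zone genes were higher in 4 of 5 acalabrutinib hosts (156 ± 277 CPM) and in 0 of 3 vehicle hosts (-399 ± 335 CPM). *Foxp1* alone held 1194 and 646 CPM of this sum over the 8 hosts. Without *Foxp1* it was 1562 ± 238 CPM against 2162 ± 194 CPM (SD), higher in 0 of 8 hosts. Since BTKC481S cells, whose BTK is not sensitive to the drug, are mixed into every host, these values are averages over both genotypes.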

How the data were processed

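Per the labels and the methods, the authors mapped SMART-seq2 reads with STARsolo 2.7.10a and deposited 1 matrix of whole-number counts for 56691 genes and 637 cells, not normalized. Reads overlapping exons or introns were counted and reads at the same position were counted once. The submitters' processing notes list GRCm38 and GRCm39 as builds, and the methods name GRCm39. SMART-seq2 has no molecular identifiers, so intervals cover counting error only. Where 959 entries shared a symbol, the entry with the most counts was used. Cell totals ran from 132412 to 1825420 counts and host totals from 26778559 to 114987280. No cell name occurred in more than 1 library, and no doublet caller was run on cells sorted into wells.

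Counts were summed per host with at least 5 cells on each side and compared with edgeR 4.0.16 in R 4.3.3 (TMM, filterByExpr, host block, Benjamini-Hochberg, adjusted p under 0.05). The replicate is the host, and p-values measure the spread between hosts. Cells and shares were computed in Python 3.11.15 (pandas 2.3.3, NumPy 2.4.6, SciPy 1.17.1). The 17 rule genes stay out of counts of calls. Alternatives were DESeq2 1.42.0, limma 3.58.1, other scaling, filters and limits, no host block, thinning, cells of nearest depth, cells chosen on one part of the reads and tested on the rest, and leaving out each host. Scripts were tested on simulated data. With the spread of these sums edgeR missed most of the changed genes in the comparison of cells and in that of treatments, so a count of 0 does not show that levels were alike.

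The cells and the 35 gene lists were chosen with earlier results of these data known. Genes named are the rule genes, *Btk*, up to 4 changed genes of each list (of at least 20 CPM, by size of change) or, with none changed, up to 2 of highest CPM, and the 10 largest rises and falls (at least 50 CPM, 25% of cells, the same direction in all hosts). Further genes of the lists were named after their values were seen. Some results are not reported here.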

Additional observations from a re-analysis of the deposited data

Results flagged for a closer look

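In 76 groups of values, which share hosts and genes, 3 genes and the summed levels of 5 gene lists had 1 host far from the other hosts in the difference of low-cycle *Myc*-negative from other cells, by Dixon's 95% limit, which chance passes in about 1 of 20 groups. In log2(CPM + 1), *Cdk1*, without a read in any low-cycle *Myc*-negative cell, stood at -8.23 in host V7 and between -7.74 and -7.40 in the others, so the distance comes from its level in the other cells. *E2f8* stood at -2.62 in host V7, against -7.30 to -6.48. *Gtse1* stood at -1.46 in host A11, against -7.59 to -6.33.

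In the log2 ratio of summed levels, host A10 stood apart in 3 lists: G1 cyclins and CDKs (-0.81, against -0.24 to -0.11), anti-apoptotic genes (-0.96, against -0.37 to 0.061) and B cell markers (0.67, against 0.40 to 0.53). NF-kB genes stood at 0.41 in host A7, against -0.23 to 0.056, and memory and naive B cell genes at 0.17 in host V7, against 0.42 to 0.62.

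Summed pro-apoptotic genes differed in sign between treatments, with a mean difference of low-cycle *Myc*-negative from other cells of 109 CPM in acalabrutinib hosts and -91.9 CPM in vehicle hosts. This difference was not tested.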

How the results depend on the processing

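The comparison of low-cycle *Myc*-negative with other cells called 447 genes. It called 3102 with DESeq2 (471 higher, 2631 lower), 2681 with limma on the mean log2(CPM + 1) per cell (90 higher, 2591 lower), 207 with no filter on low counts and 107 against other cells of nearest depth. Leaving out 1 host gave 235 to 308 genes: 235 without A12, 257 without V9, 274 without A11, 275 without A10, 276 without V5, and 296 without A7 or V7. Counts within 1.5 times came from library total scaling (402), thinning (381), choice after thinning (383), limits of 20% (506) and 40% (371), any *Myc* count (432) and choice on one part of the reads and test on the rest (443). Without the replicate block 390 genes were called, of which 297 were shared with the 447, and the cells of a host were paired because they come from the same mouse.

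Against *Myc*-negative cells above the limit, 307 genes became 2346 with DESeq2, 268 after thinning, 288 with no replicate block and 180 to 241 without 1 host (180 without V9, 198 without A8, 204 without A12). Against low-cycle cells with *Myc* reads, the count of 0 became 1201 with DESeq2, and it was 0 with no replicate block and without each host. The comparisons by treatment, both at 0, gave 437 and 496 with DESeq2 and 0 without each host. The difference in share lay between -0.58 and 7.24 points without 1 host.

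Of 73 named changed genes and *Btk*, the sign turned only with limma on the mean log2(CPM + 1) per cell, for *Arhgef1* (-0.020), *mt-Nd5* (-0.25), *mt-Co1* (-0.047) and *Btk* (-0.22). Of all 165 higher genes, limma kept the sign of 149 and called 50 higher again. All 191 lower genes that it tested kept their sign and passed. Named genes that still passed were 73 with DESeq2, 62 with library total scaling and 58 after thinning. With no replicate block they were 58, with limma 47 and against cells of nearest depth 27. Summed levels without the most abundant gene of a list were added after seeing the data. The causes were not tested. Host totals limit precision for low genes: no read in 161 cells allows a share of cells with a read of up to 1.86%, and does not limit the share that express the gene.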

Other observations

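Of 30 chromatin genes, *Kmt2d*, a histone H3 methyltransferase, and *Hdac9*, a deacetylase, were higher by 0.54 and 0.75 in low-cycle *Myc*-negative cells, and *Ezh2* and *Dnmt1* were lower. *Hdac9* did not pass with scaling to the library total. *Kmt2d* had a median of 719 CPM over hosts (599 to 778) against 500 CPM (415 to 640), higher in all 8 hosts. Of 7 immunoglobulin constant genes tested, *Ighg1*, the IgG1 heavy chain, rose by 0.47, from a median of 1622 CPM (1323 to 1973) to 2087 CPM (1925 to 2422).

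EdgeR called none of 10 type I interferon response genes and 40 nuclear genes of mitochondrial electron transport (2 and 0 at an unadjusted p under 0.05), DESeq2 called 2 and 0, and limma on the mean log2(CPM + 1) per cell 0 and 28, with list medians of -0.94 and -0.34 beside -0.51 for all genes. Over all genes 15.7% had such a p, DESeq2 called 17.3% and limma 2681 of 8841.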
